A study of Mus musculus with 9 samples.

Results

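The pulmonary surfactant protein genes Sftpa1, Sftpb, Sftpc and Sftpd were followed through RNA sequencing of whole mouse thyroid. They are 4 of the 33924 named genes of the count table, taken by symbol, and all 4 were found. They were picked because earlier results of these same counts had shown their levels to differ between libraries, so every level and fold of these 4 genes is given as a description, with no test. The series holds 9 libraries in 3 genotype groups of 3: wild type, Arid2 KO and Smarcb1 KO as labelled. Both targeted genes code for components of SWI/SNF complexes, which move nucleosomes. All thyroids were frozen after removal and carry no other treatment in the labels. Strain, sex, age, the alleles, and any promoter that drives a deletion are not given in the sources used here. Whether the 3 libraries of a genotype are separate animals is not stated either, so tests on other genes below measure only the spread between these libraries.

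Surfactant is the lipid and protein film that keeps the air spaces of the lung open. SP-B and SP-C, encoded by Sftpb and Sftpc, are small hydrophobic proteins that work inside the lipid film. SP-A and SP-D, encoded by Sftpa1 and Sftpd, are collectins, water-soluble lectins with a collagen-like stem that bind microbes. Alveolar type 2 cells of the lung make all 4, and secretory cells of the airways are also known to make SP-A, SP-B and SP-D. The homeodomain factor Nkx2-1 is shared by lung and thyroid: it acts on surfactant gene promoters in lung and on thyroid genes such as Tg in follicular cells.

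Total counts ran from 33666251 to 34045321 in wild type, from 61179297 to 89553766 in the Arid2-labelled libraries and from 38644867 to 41362640 in the Smarcb1-labelled libraries, so low levels are read more precisely in the Arid2-labelled group. Levels are given as CPM, read counts relative to TMM-scaled library size. Tg, the thyroglobulin gene, stood at 225710 CPM or more in every library. Arid2 itself was not lower in the libraries labelled for it (77.4 ± 17.3 CPM against 70.5 ± 3.86 in wild type, mean ± SD, n = 3 each; edgeR adjusted p = 0.745), and Smarcb1 stood at 53.5 ± 5.98 CPM in the libraries labelled for it against 69.0 ± 2.93 (edgeR adjusted p = 0.0651). These are whole-gene counts of whole tissue and the alleles are not given, so they cannot decide whether either gene was deleted. The groups are therefore called by their labels. Rag1, which developing B and T cells need for receptor recombination, was high in Arid2-labelled replicate 1 (502.0 CPM) and Smarcb1-labelled replicate 2 (52.6 CPM), against 0.145 CPM or less elsewhere. Values without both libraries are given below for the surfactant protein genes and for the list genes whose calls ended without them. In whole tissue, fewer cells of a type and less RNA per cell cannot be told apart.

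Sftpb gave the highest CPM of the 4 genes in each Arid2-labelled library. It stood at 6.13, 20.4 and 14.0 CPM in Arid2-labelled replicates 1, 2 and 3, from 557, 1306 and 874 reads. Wild-type replicates 1, 2 and 3 stood at 1.64, 0.285 and 0.237 CPM, from 54, 10 and 8 reads. The Smarcb1-labelled replicates stood at 1.22, 2.31 and 1.57 CPM. The Arid2-labelled libraries lay above all others, while wild-type replicate 1 lay inside the Smarcb1-labelled range. Group means were 13.5 ± 7.17 CPM in Arid2-labelled, 1.70 ± 0.555 in Smarcb1-labelled and 0.720 ± 0.795 in wild-type libraries (SD, n = 3 each). The fitted log2 fold of Arid2-labelled over wild type was 4.23 (SE 0.77), and without wild-type replicate 1 it was 5.68. Smarcb1-labelled over wild type had a log2 fold of 1.24 (SE 0.72), which became 2.69 without wild-type replicate 1. That single library therefore sets much of the size of both contrasts of Sftpb with wild type.

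Sftpa1, the gene of SP-A, stood at 5.11, 13.1 and 7.63 CPM in Arid2-labelled replicates 1, 2 and 3, from 464, 838 and 475 reads. In wild type it had 3, 9 and 4 reads, or 0.0910, 0.256 and 0.119 CPM. In the Smarcb1-labelled replicates it stood at 2.75, 3.06 and 0.785 CPM, from 108, 135 and 29 reads. The 3 groups did not overlap, with Arid2-labelled highest, Smarcb1-labelled between and wild type lowest. Means were 8.62 ± 4.09, 2.20 ± 1.23 and 0.155 ± 0.0884 CPM in that order (SD, n = 3 each). The log2 fold over wild type was 5.76 (SE 0.68) for Arid2-labelled and 3.79 (SE 0.65) for Smarcb1-labelled. On summed reads the Arid2-labelled level was 52.1 times the wild-type level, with a 95% exact counting interval of 32 to 91.4, and the Smarcb1-labelled level was 14.4 times it (8.69 to 25.5). These intervals cover counting error only, since the reads of a group were summed and the spread between its libraries is left out. PCR copies were not told apart by molecular identifiers, so even the counting error may be larger.

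Sftpd, the gene of SP-D, was near the limit of detection in wild type, with 3, 2 and 1 reads (0.0910, 0.0569 and 0.0297 CPM). A level of 3 reads corresponds to 0.0854 to 0.0910 CPM in these wild-type libraries. The Arid2-labelled replicates had 251, 663 and 323 reads (2.76, 10.4 and 5.19 CPM) and the Smarcb1-labelled replicates 24, 36 and 15 reads (0.611, 0.815 and 0.406 CPM). The order of the groups was the same as for Sftpa1, again with no overlap, and the means were 6.11 ± 3.89, 0.610 ± 0.204 and 0.0592 ± 0.0307 CPM (SD, n = 3 each). Because the wild-type reads are so few, the ratio of summed reads is given with its counting interval, which leaves out the spread between libraries. It was 96.7 times wild type in the Arid2-labelled libraries (44.3 to 264) and 10.6 times in the Smarcb1-labelled libraries (4.63 to 29.7). The fitted log2 folds were 6.63 (SE 0.66) and 3.32 (SE 0.66), and the first was 6.01 without Arid2-labelled replicate 2.

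Sftpc did not share this pattern. SP-C is the surfactant protein regarded as specific to alveolar type 2 cells, and its gene had 9 to 81 reads per library. Wild-type levels were 0.334, 0.996 and 0.504 CPM, and in the Arid2-labelled replicates they were 0.462, 0.344 and 1.30 CPM. The Smarcb1-labelled replicates gave 0.229, 0.407 and 0.487 CPM. All 3 groups overlapped, with means of 0.611 ± 0.344 CPM in wild type and 0.703 ± 0.522 CPM in Arid2-labelled libraries (SD, n = 3 each). The log2 fold over wild type was 0.19 (SE 0.58) for Arid2-labelled, and -0.61 without Arid2-labelled replicate 3, which held the highest level. It was -0.71 (SE 0.61) for Smarcb1-labelled.

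**Figure D1:**
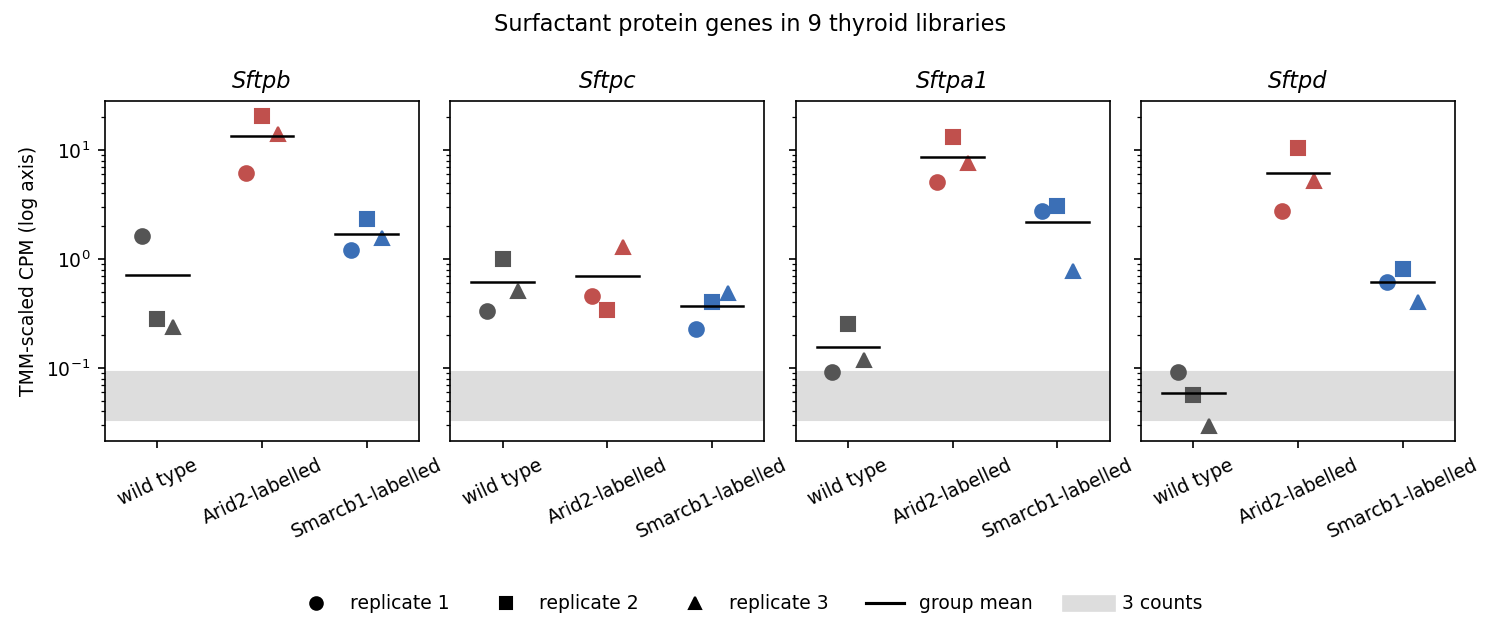
TMM-scaled CPM (log axis) of the 4 surfactant protein genes in each library, with group means as bars, replicates as symbols and a grey band for the level that 3 reads give. Sftpb, Sftpa1 and Sftpd are highest in the 3 Arid2-labelled libraries, with Arid2-labelled replicate 2 at the top (20.4, 13.1 and 10.4 CPM), while Sftpc overlaps between all groups.

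Of the 4 genes, 3 had every Arid2-labelled library above every wild-type library, where 12.9% of the 17079 tested genes did so. Against wild type, 2 of the 4, Sftpa1 and Sftpd, had every Smarcb1-labelled library higher, where 17.1% of tested genes did. Between the labelled groups, Sftpa1, Sftpb and Sftpd were lower in every Smarcb1-labelled library than in any Arid2-labelled one, where 20.5% of tested genes were. Since the genes were picked on these contrasts, nothing is read from these shares. The log2 folds of Smarcb1-labelled over Arid2-labelled were -1.97 (SE 0.54) for Sftpa1, -2.99 (SE 0.71) for Sftpb, -3.31 (SE 0.51) for Sftpd and -0.90 (SE 0.59) for Sftpc. Without Arid2-labelled replicate 2 that of Sftpd was -2.69, and without Arid2-labelled replicate 3 that of Sftpc was -0.12. The 3 comparisons share libraries and are not independent of each other. All 4 genes passed the filter on low counts, but Sftpd exceeded its level of 0.251 CPM in 0 wild-type libraries and Sftpa1 in 1, so both passed through the groups where they were high.

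Without the 2 Rag1-high libraries the Arid2-labelled folds over wild type were 5.99 for Sftpa1, 4.56 for Sftpb, 6.95 for Sftpd and 0.37 for Sftpc on the log2 scale. The Smarcb1-labelled folds were then 3.42, 0.92, 3.0 and -0.83 in the same order. Arid2-labelled replicate 1, with the highest Rag1, had the lowest level of Sftpa1, Sftpb and Sftpd within its group. Smarcb1-labelled replicate 2, the other Rag1-high library, had the highest of its group (3.06, 2.31 and 0.815 CPM).

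Per kilobase of transcript the genes can be set against each other within a library. In wild-type replicates 2 and 3 Sftpc made up 80.5% and 75.1% of the 4 genes' summed RPKM, whereas in wild-type replicate 1 Sftpb made up 67.7%. In the Arid2-labelled replicates Sftpb made up 50.4%, 55.1% and 55.8%, Sftpa1 22.8%, 19.2% and 16.4%, and Sftpd 19.4%, 23.9% and 17.6%, while Sftpc made up 7.43%, 1.81% and 10.1%. In the Smarcb1-labelled replicates Sftpb made up 33.2%, 42.3% and 47.6%, Sftpa1 40.5%, 30.4% and 12.9%, and Sftpd 14.2%, 12.8% and 10.6%. Sftpb was thus the largest share in each Arid2-labelled library, where the 4 genes had 1314 to 2829 summed reads, and the share of Sftpc varied most among those libraries. The wild-type libraries held 30 to 71 such reads each.

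**Figure D2:**
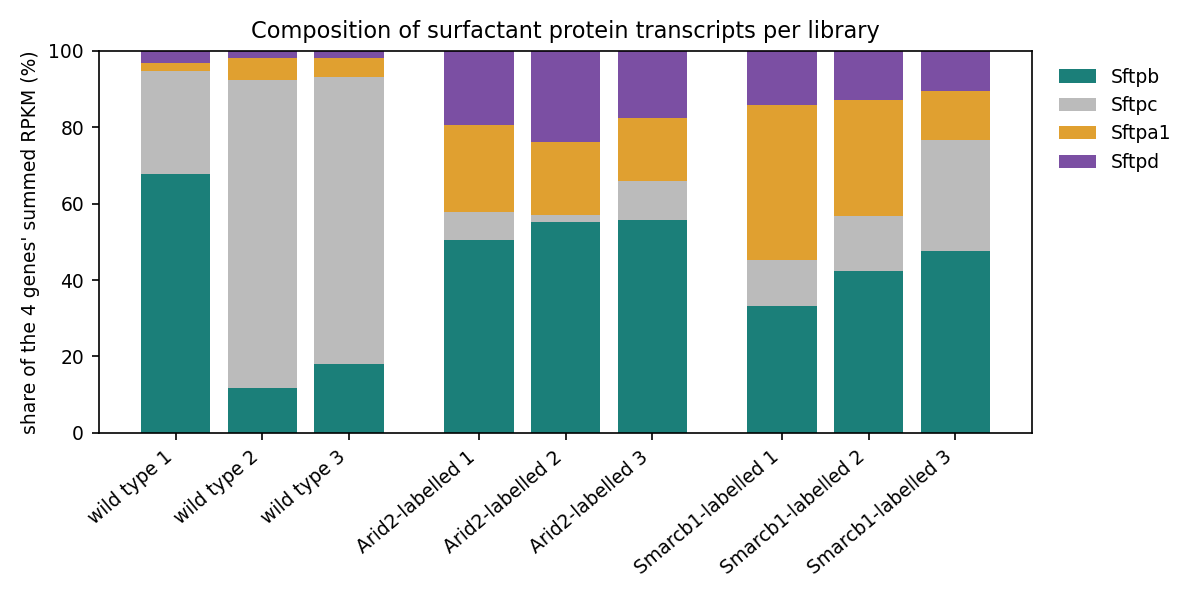
Share (%) of each gene in the summed RPKM of the 4 surfactant protein genes, 1 bar per library. Sftpb holds 50.4% to 55.8% in the Arid2-labelled libraries, and Sftpc holds 80.5% and 75.1% in wild-type replicates 2 and 3.

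Over the 9 libraries the log2(CPM + 0.5) levels of Sftpa1 and Sftpd had a Pearson r of 0.950, those of Sftpb and Sftpd 0.967 and those of Sftpa1 and Sftpb 0.895, while Sftpc had r of 0.0184 to 0.116 with the other 3. These correlations mainly follow the group means. Taken as deviations from the group means, r was 0.787 for Sftpa1 with Sftpd, 0.722 for Sftpb with Sftpd and 0.366 for Sftpa1 with Sftpb. All values come from the same libraries and share their depth, so they are given as a description over 9 libraries.

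The RefSeq promoter table (build GRCm38.p6) matched 2 of the 4 genes, Sftpa1 and Sftpb. Their promoters are shown because Nkx2-1, the factor common to lung and thyroid, was abundant in all libraries. Each sequence is the 250 bases before the annotated start on the plus strand, at chr14:41131538-41131787 for Sftpa1 and chr6:72304360-72304609 for Sftpb, and capitals mark CTCAAG, the core of the classical Nkx2-1 motif.
Sftpa1: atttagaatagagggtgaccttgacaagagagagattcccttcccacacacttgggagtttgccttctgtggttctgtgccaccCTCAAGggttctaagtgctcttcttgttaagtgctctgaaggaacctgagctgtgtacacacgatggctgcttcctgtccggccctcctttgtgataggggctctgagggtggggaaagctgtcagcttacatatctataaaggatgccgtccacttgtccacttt
Sftpb: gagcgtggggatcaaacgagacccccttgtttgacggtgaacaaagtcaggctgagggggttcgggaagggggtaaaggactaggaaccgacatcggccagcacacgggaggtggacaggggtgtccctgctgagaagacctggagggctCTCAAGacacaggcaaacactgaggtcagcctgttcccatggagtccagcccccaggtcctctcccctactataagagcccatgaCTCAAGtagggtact
Sftpb held CTCAAG at 2 places, beginning 100 and 15 bases before the start, and Sftpa1 at 1, beginning 166 bases before it. On either strand, 13.3% of 32851 promoter windows of the same length held this motif, and 0.998% held it more than once. A second form of the NK2 core, CAAGTG, was found on the minus strand of Sftpa1, 202 and 14 bases before the start, and was absent from the Sftpb window; 11.6% of windows held it. TGANTCA, the AP-1 motif, stood 18 bases before the Sftpb start, where it overlaps the second CTCAAG (6.75% of windows). Neither window held the forkhead motif TGTTTAC (3.17% of windows) or the C/EBP motif TTGCNNAA (9.56%). A match of letters is not a measured binding site.

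Sftpa1 and Sftpd lie close together on chromosome 14, with the collectin gene Mbl1 between them in RefSeq order, and Sftpb lies on chromosome 6. Gene order was read from RefSeq on GRCm38.p6. Mbl1 had 0 counts in all 9 libraries, which allows a level of up to 0.0330 CPM in the deepest. Mat1a, a liver-type methionine adenosyltransferase next to Sftpa1, stood at 1.10 CPM in the Arid2-labelled group against 1.34 in wild type (log2 fold -0.29, SE 0.59, edgeR adjusted p = 0.858). Usp39 and Atoh8, on either side of Sftpb, had log2 folds of -0.19 (SE 0.10, edgeR adjusted p = 0.441) and 0.28 (SE 0.38, edgeR adjusted p = 0.781). Counting 4 genes on each side of every surfactant protein gene, 17 of 25 neighbours could be tested. By edgeR 0 of the 17 passed in the Arid2-labelled comparison, while 3 had an unadjusted p under 0.05 and DESeq2 called 0, where 0.556% of all tested genes passed. Their log2 folds ran from -0.70 to 0.30. In the Smarcb1-labelled comparison with wild type 1 passed, Bmp1 next to Sftpc, a procollagen protease, which fell (log2 fold -0.57, SE 0.12, edgeR adjusted p = 0.028), where 7.9% of tested genes passed. There 6 of the 17 had an unadjusted p under 0.05, DESeq2 called 5, and log2 folds ran from -0.69 to 1.65. Smarcb1-labelled replicates 1, 2 and 3 had Mat1a at 5.67, 3.76 and 2.95 CPM, all above the wild-type values of 0.849, 2.79 and 0.386 CPM (log2 fold 1.62, SE 0.60, edgeR adjusted p = 0.12), and Phyhip, near Sftpc, had a log2 fold of 1.65 (SE 0.47, edgeR adjusted p = 0.0629). Between the labelled groups 2 of the 17 passed, where 16.3% of all tested genes did: Phyhip was higher in the Smarcb1-labelled libraries (2.10, SE 0.47, edgeR adjusted p = 0.0228) and Bmp1 lower (-0.43, SE 0.12, edgeR adjusted p = 0.0432).

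The factors known to act on surfactant genes were measured next. Nkx2-1 stood at 248 to 260 CPM in the Arid2-labelled libraries, at 199 to 301 CPM in the Smarcb1-labelled libraries and at 295 to 339 CPM in wild type. Its log2 fold over wild type was -0.34 (SE 0.16, edgeR adjusted p = 0.358) for Arid2-labelled and -0.44 (SE 0.16, edgeR adjusted p = 0.111) for Smarcb1-labelled. The forkhead factor genes Foxa1 (-0.26, SE 0.31) and Foxa2 (-0.58, SE 0.36) did not pass in the Arid2-labelled comparison either. Of 16 tested regulators 0 passed there by edgeR, where 0.556% of all tested genes did. Of the 16, 0 had an unadjusted p under 0.05 and DESeq2 called 0. Their median log2 fold was -0.04, beside 0.02 over all tested genes. For Smarcb1-labelled against wild type 1 of the 16 passed, where 7.9% of all tested genes did, while 6 had an unadjusted p under 0.05 and DESeq2 called 1 higher and 2 lower. Cebpd, which encodes a C/EBP factor, was the gene that passed, and it fell from 11.2 ± 5.11 to 4.15 ± 0.942 CPM (log2 fold -1.44, SE 0.30, edgeR adjusted p = 0.0258). Its call ended without Arid2-labelled replicate 2 or Smarcb1-labelled replicate 1 or 3. The list's median log2 fold there was 0.02, beside 0.05 over all genes.

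Genes of surfactant assembly were present in thyroid at levels far apart from one another. Abca3, the lipid transporter of the lamellar body, stood at 285 to 321 CPM in the Arid2-labelled libraries and 273 to 378 CPM in wild type (log2 fold -0.06, SE 0.18, edgeR adjusted p = 0.912). The lipid synthesis genes Scd1 and Fasn, which many cells including fat cells use, varied widely within groups; Scd1 ran from 1433 to 8261 CPM in wild type. Napsa encodes napsin A, an aspartic protease that processes pro-SP-B. It fell in the Smarcb1-labelled libraries, to 42.0, 105 and 79.7 CPM from 199, 266 and 209 CPM in wild type (log2 fold -1.57, SE 0.30, edgeR adjusted p = 0.0202), and these groups did not overlap. That call ended without wild-type replicate 1 or 2 or Smarcb1-labelled replicate 3. In the Arid2-labelled libraries Napsa stood at 279, 261 and 376 CPM (log2 fold 0.44, SE 0.30, edgeR adjusted p = 0.532), and Smarcb1-labelled over Arid2-labelled it was lower by a log2 fold of -2.01 (SE 0.31, edgeR adjusted p = 0.0075), a call kept in all 9 fits that left out 1 library. Ctsh, a cathepsin that also processes surfactant proteins, had a log2 fold of -0.51 (SE 0.15, edgeR adjusted p = 0.164) over wild type in the Arid2-labelled group and of 0.02 (SE 0.15) in the Smarcb1-labelled group. Of 10 tested assembly genes 0 passed in the Arid2-labelled comparison by edgeR, while 1 had an unadjusted p under 0.05 and DESeq2 called 1 lower, where 0.556% of all tested genes passed. Napsa was the 1 of the 10 that passed for Smarcb1-labelled against wild type, where 7.9% of all tested genes did.

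Among 7 tested genes of surfactant clearance and reception 1 passed for Smarcb1-labelled against wild type, where 7.9% of all tested genes did. Csf2ra, a chain of the GM-CSF receptor that macrophages need to clear surfactant, fell in the Smarcb1-labelled libraries, from 13.8 ± 2.35 to 5.81 ± 2.24 CPM (log2 fold -1.24, SE 0.27, edgeR adjusted p = 0.0301). This call ended without any 1 wild-type library, Arid2-labelled replicate 2 or Smarcb1-labelled replicate 3. In the Arid2-labelled comparison 0 of 7 passed by edgeR, where 0.556% of all tested genes did, while 1 had an unadjusted p under 0.05 and DESeq2 called 1 lower. Gpr116, a receptor that limits surfactant secretion, is also an endothelial gene and stood at 367 ± 113 CPM in Arid2-labelled and 332 ± 58.5 CPM in wild-type libraries (log2 fold 0.15, SE 0.22, edgeR adjusted p = 0.808). Of the other collectins 2 of 5 could be tested, Colec11 (0.43, SE 0.29) and Colec12 (-0.14, SE 0.19), and neither passed in the Arid2-labelled comparison, by edgeR adjusted p = 0.536 and 0.773.

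Across these 4 lists 35 of 41 genes were tested, leaving out the surfactant protein genes. In the Arid2-labelled comparison 0 passed by edgeR, where 0.556% of all tested genes did. Of the 35, 2 had an unadjusted p under 0.05 and DESeq2 called 2 lower, and the median log2 fold was 0.01. In the Smarcb1-labelled comparison with wild type 3 of the 35 fell and 0 rose, a share near the 7.9% of all tested genes that passed, with a median of -0.03. Between the labelled groups 5 passed, where 16.3% of all tested genes did: Napsa, Csf2ra and Cebpd were lower in the Smarcb1-labelled libraries, and Ctsh and Sirpa were higher. With 1 library left out Napsa kept this call in 9 of 9 fits, Cebpd and Csf2ra in 5, Sirpa in 2 and Ctsh in 1, the last only without Smarcb1-labelled replicate 3. Removing the GC trend ended the calls of Ctsh (edgeR adjusted p = 0.0767) and Csf2ra (0.0569). Leaving out both Rag1-high libraries ended those of Ctsh (edgeR adjusted p = 0.14) and Sirpa (0.0826).

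**Figure D3:**
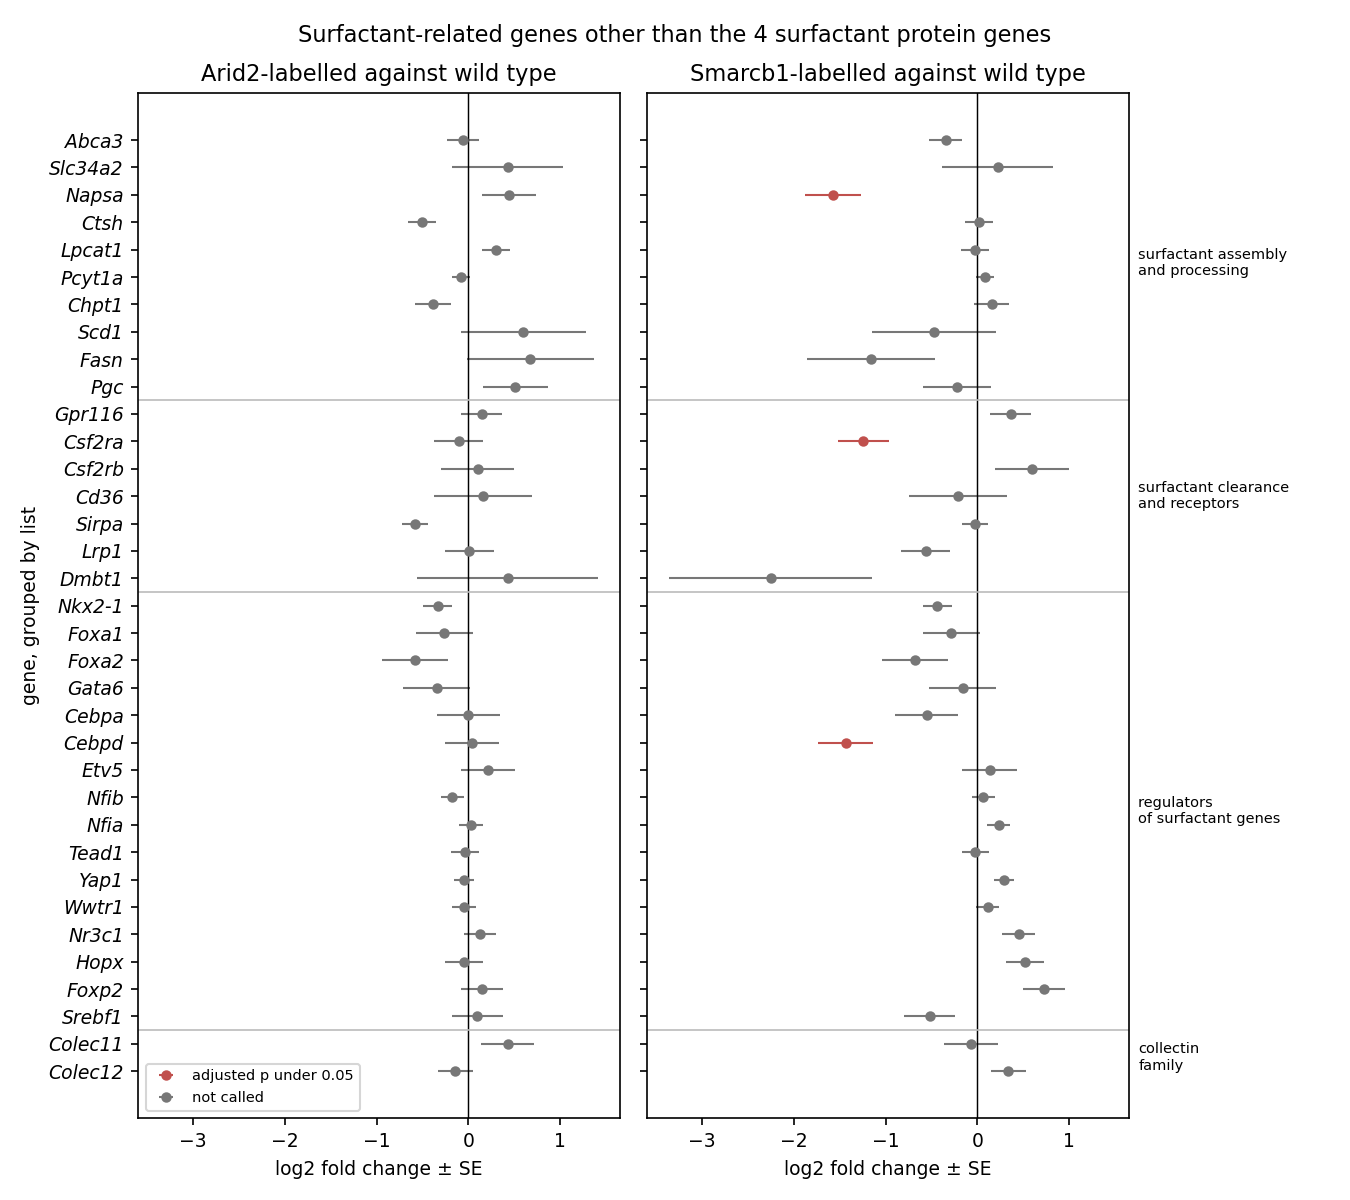
Fitted log2 fold change with its SE for the 35 tested surfactant-related genes in each comparison with wild type, grouped by list, with genes at an adjusted p under 0.05 in red. No gene is red for Arid2-labelled libraries; Napsa, Csf2ra and Cebpd are red, and lower, for Smarcb1-labelled libraries.

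Markers of lung and airway cells were read beside the surfactant genes, since the thyroid lies against the trachea. Lamp3 and Cldn18, markers of alveolar cells, had at most 4 reads in any library, and Sfta2, another surfactant-associated gene, had 5 reads in Arid2-labelled replicate 2, 1 in Smarcb1-labelled replicate 3 and 0 elsewhere. Of 9 tested alveolar type 2 markers 0 passed in the Arid2-labelled comparison by edgeR, where 0.556% of all tested genes did. Of the 9, 3 had an unadjusted p under 0.05 and DESeq2 called 3 higher. Log2 folds of 6 were positive and of 3 negative, with a median of 0.43. Fabp5 stood at 36.1 to 49.0 CPM in the Arid2-labelled libraries against 6.67 to 18.8 in wild type. Muc1 (2.12 to 4.16 against 0.801 to 1.34 CPM) and Chi3l1 (1.61 to 8.62 against 0.512 to 0.880 CPM) did not overlap between these groups either. Of all tested genes 12.9% were higher in this way. The summed level of the list was 675 to 779 CPM in the Arid2-labelled libraries, 566 to 636 CPM in wild type and 274 to 463 CPM in the Smarcb1-labelled libraries, with Abca3 and Napsa as the main contributors in every library. Of 8 tested alveolar type 1 markers 0 passed in the same comparison by edgeR, beside the same 0.556% of all tested genes. Of the 8, 4 had an unadjusted p under 0.05 and DESeq2 called 1 lower. Their summed level was 532 to 732 CPM in the Arid2-labelled libraries and 517 to 742 CPM in wild type. Ager, the most abundant of them on average, stood at 248 to 349 CPM and 297 to 454 CPM in the same order.

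Of 13 tested genes of airway secretory and gland cells 3 rose in the Arid2-labelled comparison, where 0.556% of all tested genes passed in either direction. They were the secretoglobin gene Scgb3a1 (log2 fold 5.47, SE 0.45, edgeR adjusted p = 0.00261), the mucin gene Muc5b (4.26, SE 0.65, edgeR adjusted p = 0.029) and Bpifb1, a secreted lipid-binding protein of airways (4.85, SE 0.65, edgeR adjusted p = 0.021). These 3 had been seen to rise in earlier results of the same counts, so nothing is read from their p-values or from their share of the list. In wild type Bpifb1 reached at most 0.0890 CPM and Muc5b at most 0.199 CPM, both under the filter level of 0.251 CPM. Both therefore passed the filter through the Arid2-labelled libraries, where they were high. Of the 3, Scgb3a1 alone kept its call whichever of the 9 libraries was left out. The call of Bpifb1 ended without wild-type replicate 1 or 2 or Arid2-labelled replicate 2 or 3, and that of Muc5b without any 1 wild-type or Arid2-labelled library. Bpifb1 had 1, 1 and 3 reads in wild type, and its summed reads gave a ratio of 28.9 with a counting interval of 12.2 to 89.6. The median log2 fold of the list was 1.06, with 10 positive and 3 negative. Of the 13, 6 had an unadjusted p under 0.05, and DESeq2 called 5 higher and 0 lower. Scgb1a1, Reg3g, Ltf and Spdef did not pass by edgeR, but every Arid2-labelled library lay above every wild-type one, as for 12.9% of tested genes. Reg3g stood at 2.86 to 12.7 CPM in the Arid2-labelled libraries against 0.0607 to 0.712 CPM in wild type. In the Smarcb1-labelled comparison with wild type 0 of the 13 passed by edgeR, where 7.9% of all tested genes did. Of the 13, 2 had an unadjusted p under 0.05 and DESeq2 called 0. Scgb3a1 stood at 0.382, 0.769 and 0.271 CPM there against 0.334, 0.285 and 0.534 in wild type.

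Sftpa1 and Scgb3a1 thus gave different values in the Smarcb1-labelled group. Sftpa1 had a log2 fold of 3.79 over wild type there, and Scgb3a1 had 0.32 (SE 0.44, edgeR adjusted p = 0.662); the difference between the 2 genes was not tested. The order of libraries also differed within groups. Scgb1a1, the main secretoglobin of airway club cells, stood at 6.50, 4.71 and 32.7 CPM in Arid2-labelled replicates 1, 2 and 3, lowest in the replicate where Sftpa1, Sftpb and Sftpd were highest. Between groups it went the same way as those 3 genes, with 0.121 to 0.655 CPM in wild type, below every Arid2-labelled library. The Smarcb1-labelled libraries had Scgb1a1 at 0.108 to 3.15 CPM. Not all genes of the list followed Scgb1a1 in the order of replicates. Bpifb1 (0.913 to 1.99 CPM in the Arid2-labelled group) and Tff2 (0.193 to 0.642 CPM) were highest in replicate 2, as the 3 surfactant genes were. Bpifa1, an abundant airway secretory gene, ran from 71.8 to 146 CPM in wild type, where Sftpd had at most 3 reads, and stood at 22.4 CPM in Arid2-labelled replicate 2. It was highest, at 375 CPM, in Smarcb1-labelled replicate 2, with Cyp2f2 at 45.2 and the basal cell keratin gene Krt5 at 41.3 CPM; that library also had the highest Sftpb, Sftpa1 and Sftpd of its group. Smarcb1-labelled replicate 1 had Bpifa1 at 3.89 CPM and Krt5 at 0 reads, with Sftpa1 at 2.75 CPM. On average over the 9 libraries Bpifa1 was the most abundant gene of the secretory and gland list (101.5 CPM), so the sum says little of its scarcer genes. The summed secretory and gland list was 96.0 to 309 CPM in the Arid2-labelled libraries, 128 to 200 CPM in wild type and 41.3 to 499 CPM in the Smarcb1-labelled libraries. Its part in the surfactant levels was not tested.

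**Figure D4:**
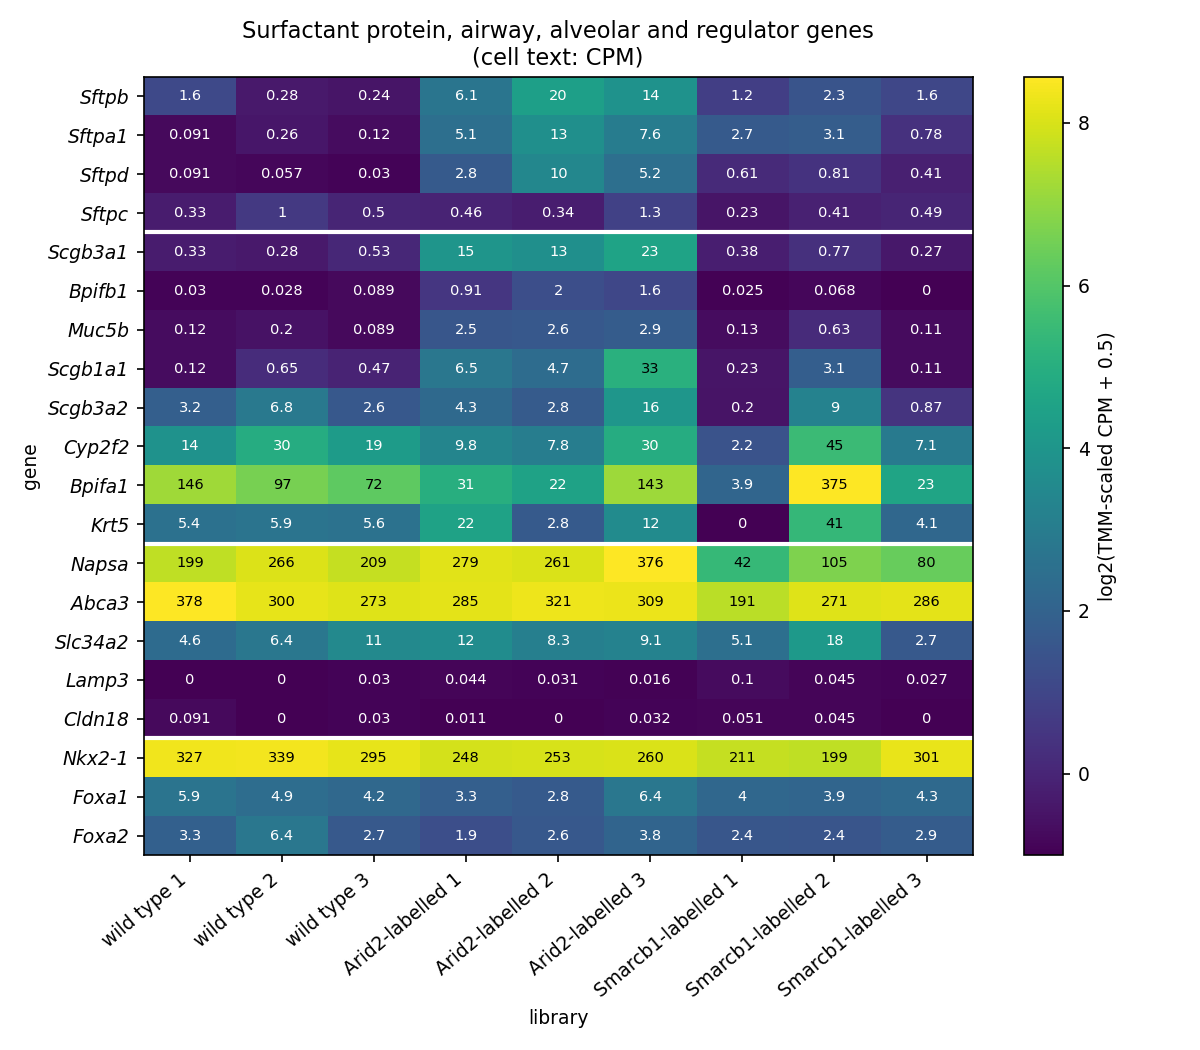
Levels of surfactant protein genes, airway genes, alveolar genes and regulators (rows) in the 9 libraries (columns), coloured by log2(CPM + 0.5) with the CPM written in each cell. Scgb3a1, Bpifb1 and Muc5b are high in the 3 Arid2-labelled libraries as Sftpb, Sftpa1 and Sftpd are, Bpifa1 peaks at 375 CPM in Smarcb1-labelled replicate 2, and Lamp3 and Cldn18 stay at 0.102 CPM or less throughout.

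Ciliated and basal cell markers gave few calls. Of 9 tested ciliated cell genes 0 passed in the Arid2-labelled comparison by edgeR, where 0.556% of all tested genes did, while 1 had an unadjusted p under 0.05 and DESeq2 called 0. In the Smarcb1-labelled comparison 1 passed, Tppp3, which fell (log2 fold -0.63, SE 0.14, edgeR adjusted p = 0.0289) and lost its call without any 1 wild-type library, Arid2-labelled replicate 2 or Smarcb1-labelled replicate 1 or 3, and with the GC trend removed. Of 7 basal cell genes 0 passed in either comparison with wild type by edgeR, where 0.556% (Arid2-labelled) and 7.9% (Smarcb1-labelled) of all tested genes did. In the same order 0 and 1 had an unadjusted p under 0.05, and DESeq2 called 0 in each. Over all 46 tested airway and alveolar markers 3 rose, the secretory genes named above, and 0 fell in the Arid2-labelled comparison, where 0.556% of all tested genes passed. Since these 3 were known to rise in the same counts, nothing is read from that share. In the Smarcb1-labelled comparison with wild type 0 rose and 2 fell (Napsa and Tppp3), where 7.9% of all tested genes passed. Between the labelled groups 10 of the 46 passed, where 16.3% of all tested genes did. Smarcb1-labelled over Arid2-labelled, 9 were lower, among them Scgb3a1 (-5.16, SE 0.44, edgeR adjusted p = 0.00115), Spdef, a regulator of secretory cells (-1.93, SE 0.39, edgeR adjusted p = 0.0173), Fabp5, Muc1 and Tff2, and 1, Ccdc39, was higher (1.52, SE 0.31, edgeR adjusted p = 0.0173). The other lower genes were Bpifb1, Muc5b, Napsa and Tppp3, of which Bpifb1 and Muc5b passed the filter through the Arid2-labelled libraries, as above. With 1 library left out Scgb3a1, Bpifb1 and Napsa kept their calls in 9 of 9 fits and Muc5b in 8. Spdef kept its call in 7, Ccdc39 in 6, Tppp3 in 5, Fabp5 and Muc1 in 2 and Tff2 in 1. Leaving out Arid2-labelled replicate 2 ended the calls of Spdef, Ccdc39, Tppp3, Fabp5, Muc1 and Tff2. Removing the GC trend ended those of Spdef (edgeR adjusted p = 0.0889), Tppp3 (0.312), Fabp5 (0.0615), Muc1 (0.0817) and Tff2 (0.109). The call of Tff2 also ended without both Rag1-high libraries (edgeR adjusted p = 0.108).

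Markers of other tissues at the thyroid also varied. The summed developing thymocyte list of 7 genes, Rag1 among them, reached 1173 CPM in Arid2-labelled replicate 1, reached 187 CPM in Smarcb1-labelled replicate 2 and did not exceed 3.58 CPM in any other. The 3 parathyroid genes summed to 10.6 CPM in Arid2-labelled replicate 3, where Sftpa1, Sftpb and Sftpd were at 7.63, 14.0 and 5.19 CPM, and to 8.16 CPM in wild-type replicate 3. They summed to 6092 CPM or more in the Smarcb1-labelled libraries. Macrophage genes summed to 104 to 122 CPM in the Arid2-labelled libraries, 104 to 127 CPM in wild type and 71.8 to 119 CPM in the Smarcb1-labelled libraries.

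The genes whose levels over the 9 libraries were most like each surfactant gene were taken from 13989 tested genes with settled symbols, by Pearson r of log2(CPM + 0.5). For Sftpa1 they were Eif3j (r = 0.955), Sftpd (0.950), Sord (0.949), Msh5 (0.932) and Bbox1 (0.931). Sord, which encodes sorbitol dehydrogenase, stood at 459, 550 and 569 CPM in the Arid2-labelled replicates, 358, 288 and 185 CPM in the Smarcb1-labelled replicates and 191, 190 and 210 CPM in wild type, the same kind of graded order as Sftpa1 with an overlap of the last 2 groups. For Sftpd they were Ccl27a (0.981), Nxn (0.974), Sftpb (0.967), Slc23a1 (0.956) and Gzme (0.952), and for Sftpb Nxn (0.980), Sftpd, Nav1 (0.966), Bdkrb2 (0.957) and Cyp2t4 (0.939). Ccl27a, a chemokine gene, ranged only from 7.46 to 9.34 CPM, so a high r here says nothing of the size of a change. Gzme, a granzyme gene, was listed at 0 reads in all wild-type libraries and stood at 0.803, 1.05 and 0.610 CPM in the Arid2-labelled replicates. For Sftpc they were Unc119 (0.973), Omp (0.928), Sil1 (0.925), Jph3 (0.920) and Rnf135 (0.911). With 9 libraries in 3 groups, many genes reach such values, and they are descriptions only.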

How the data were processed

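The values are whole-number gene counts as deposited by the authors, 1 column per library, with no normalization. Per the submitters' processing notes, STAR 2.4, HTSeq 0.6.1, DESeq2 and build mm9 were used; their roles, the annotation and the strand setting are not given in the sources used here, so reads of overlapping or antisense genes cannot be told apart. Per the labels' protocols, RNA came from TRIzol extraction and libraries from a TruSeq RNA kit.

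Groups follow the genotype labels, and replicates were numbered in accession order. Counts were fitted with edgeR 4.0.16 (TMM, filterByExpr, quasi-likelihood F test) in R 4.3.3 with 9 libraries, 3 group means and 6 residual degrees of freedom, and 17079 genes were tested. Genes passed with a p under 0.05 after Benjamini-Hochberg adjustment over all of them. SE is the fold over the root of F. RPKM used the longest GENCODE M21 transcript. Exact binomial intervals (95%) compare summed counts.

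The members and lists were chosen with earlier results of these data known. Of 140 list entries 137 were found. Named genes are the 4 surfactant genes, list genes called anywhere, the 3 most abundant of each list, Nkx2-1, Foxa1, Foxa2, Abca3 and 3 secretoglobins, and 5 genes most alike each surfactant gene; not every gene so named is described, and the neighbours and further examples were chosen after their values were seen. On simulated counts for Arid2-labelled against wild type (16951 genes), edgeR found 31 of 99 genes altered 2-fold, 73 of 99 altered 4-fold, and made 6 false calls. Alternatives were other scalings, filters, DESeq2 1.42.0, smaller fits and omitted libraries. A removal of the trend over GC content (natural spline, 5 degrees of freedom; GC known for 97.4% of tested genes) and the omission of the Rag1-high libraries were added after seeing the data.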

Additional observations from a re-analysis of the deposited data

How the results depend on the processing

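The log2 folds of the 4 surfactant genes kept their sign in all 105 values from other scalings, filters, tests and fits apart from leaving out a single library, and 104 moved by less than 1 SD between replicates. The exception was Sftpd, Smarcb1-labelled over wild type, at 3.0 without both Rag1-high libraries. With a filter of CPM at least 1 in 3 libraries Sftpc was not tested. No paired analysis was possible because the labels carry no replicate numbers shared between groups.

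With 1 library left out, the Arid2-labelled folds over wild type ran from 5.33 to 6.33 for Sftpa1, 3.81 to 5.68 for Sftpb, -0.609 to 0.736 for Sftpc and 6.01 to 7.05 for Sftpd. The Smarcb1-labelled folds ran from 3.48 to 4.36, 0.827 to 2.69, -1.0 to -0.164 and 3.01 to 3.74 in the same order. Smarcb1-labelled over Arid2-labelled they ran from -2.28 to -1.53, -3.34 to -2.57, -1.22 to -0.121 and -3.66 to -2.69. Calls among the 35 surfactant-related genes ran from 0 to 1 (Arid2-labelled against wild type), 1 to 6 (Smarcb1-labelled against wild type) and 1 to 10 (between labelled groups), and among the 46 airway and alveolar markers from 1 to 3, 0 to 3 and 4 to 15. The upper ends 6, 10 and 15 came without Smarcb1-labelled replicate 2.

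Other settings moved these counts too. For surfactant-related genes in the Arid2-labelled comparison (0 called), DESeq2 gave 2, and fitting only the 6 libraries compared or removing the GC trend gave 1. In the Smarcb1-labelled comparison with wild type (3 called), DESeq2 gave 5, the 6 libraries alone 0 and the fit without both Rag1-high libraries 7. Between labelled groups (5 called), DESeq2 gave 9, and library totals, no filter, the 6 libraries alone and GC removal gave 3. For airway and alveolar markers, DESeq2 gave 9 in the Arid2-labelled comparison (3 called), and GC removal gave 6 between labelled groups (10 called). In the Smarcb1-labelled comparison with wild type (2 called, both lower), GC removal gave 1. The 6 libraries alone also gave 1 there, but a higher one, so both lower calls were lost. The causes were not tested. Sftpd in wild type rests on 1 to 3 reads per library, so its level there is limited by depth.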
